A study of Mus musculus with 32 samples.

Results

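The transcripts of 9 Polycomb group genes were followed in mouse oocytes: Ezh1, Ezh2, Eed, Suz12 and Jarid2 of Polycomb repressive complex PRC2, and Ring1, Rnf2, Pcgf1 and Pcgf6 of complex PRC1. They were found by their NCBI gene identifiers, matched to symbols, and make up 9 of the 37441 genes in the deposited table. RNA-seq read counts came from 32 libraries, each holding 9 to 20 pooled oocytes that came from 1 female aged 8 to 12 weeks. Oocytes were taken at the germinal vesicle stage (GV), before meiosis resumes, or at metaphase II (MII), when they are mature eggs awaiting fertilization. The females were of the inbred strains B6 and D2 or of their B6xD2 F1 hybrid, with no engineered allele named. The 6 groups held 5 B6 GV, 6 B6 MII, 5 D2 GV, 5 D2 MII, 6 F1 GV and 5 F1 MII libraries. GV oocytes alone were collected in medium with IBMX, a phosphodiesterase inhibitor that keeps the germinal vesicle from breaking down, and all oocytes were freed of their zona pellucida.

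PRC2 places methyl groups on lysine 27 of histone H3 (H3K27me3), a mark of silenced genes. Its catalytic subunit is Ezh2 or Ezh1, Eed binds the finished mark and Suz12 holds the core together, while Jarid2 is an accessory subunit that helps to bring the complex to chromatin. PRC1 attaches ubiquitin to histone H2A through Rnf2 (also called Ring1b) or Ring1 (Ring1a), each paired with a Pcgf protein: Pcgf1 defines the variant complex PRC1.1 and Pcgf6 the variant PRC1.6. In growing oocytes both complexes are known to set marks that the egg hands to the embryo, including an H3K27me3-based form of imprinting.

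On the GRCm38 assembly the PRC2 genes lie at chr11:101191115-101226463 (Ezh1, minus strand), chr6:47530274-47595270 (Ezh2, minus), chr7:89954654-89980976 (Eed, minus), chr11:79993106-80034123 (Suz12, plus) and chr13:44730774-44921643 (Jarid2, plus). The PRC1 genes lie at chr17:34020792-34024680 (Ring1, minus strand), chr1:151469398-151500991 (Rnf2, minus), chr6:83077552-83080855 (Pcgf1, plus) and chr19:47033617-47050939 (Pcgf6, minus). All are protein-coding genes, and each count is a total for the whole gene. None of them shared a 50-base exon stretch with another member, so reads of Ezh1 and Ezh2, or of Ring1 and Rnf2, have no 50-base stretch in common by which they could be confused. Opposite-strand transcripts overlap 12.6% of the exon bases of Eed, 4.07% of Suz12 and 3.28% of Ezh2, and without a stated strand setting their reads cannot be told apart from those of the members. For the transcript opposite Eed, E230029C05Rik, the deposited table held at most 0.0316 CPM in a library, against a mean of 171 CPM for Eed. Reads of Pcgf1 are the least certain, since 15.3% of its 50-base exon stretches also occur in the gene Gm8930, followed by 5.82% for Eed.

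RefSeq promoter windows on GRCm38.p6 were matched for 8 of the 9 genes, all but Pcgf1. The 250 bases upstream of the start are shown for 3 of them, 5′ to 3′ on the gene's own strand: Rnf2 and Ring1, because these paralogues had the widest gap in transcript level, and Jarid2, because it differed between the strains. Capitals mark CG dinucleotides. The letters are those of the B6 reference, so they show no D2 difference. The windows are chr1:151500992-151501241 (Rnf2, minus strand), chr17:34024681-34024930 (Ring1, minus) and chr13:44730524-44730773 (Jarid2, plus, the first of 2 windows that RefSeq gives for this gene). The start used is that of RefSeq; its first 20 transcribed bases were found at the start of a GENCODE transcript for Ring1 and Jarid2 and not for Rnf2.
Rnf2: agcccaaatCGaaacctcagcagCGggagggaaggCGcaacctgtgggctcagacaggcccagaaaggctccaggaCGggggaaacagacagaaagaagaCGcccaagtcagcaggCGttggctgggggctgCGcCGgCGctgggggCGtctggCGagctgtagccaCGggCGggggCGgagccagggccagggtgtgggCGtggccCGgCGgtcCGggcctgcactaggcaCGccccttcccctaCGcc
Ring1: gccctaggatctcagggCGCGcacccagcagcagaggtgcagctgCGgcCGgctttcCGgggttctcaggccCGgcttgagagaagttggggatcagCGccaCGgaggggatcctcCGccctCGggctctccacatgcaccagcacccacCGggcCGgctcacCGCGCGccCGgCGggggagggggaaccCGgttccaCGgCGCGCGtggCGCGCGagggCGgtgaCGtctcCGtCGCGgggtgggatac
Jarid2: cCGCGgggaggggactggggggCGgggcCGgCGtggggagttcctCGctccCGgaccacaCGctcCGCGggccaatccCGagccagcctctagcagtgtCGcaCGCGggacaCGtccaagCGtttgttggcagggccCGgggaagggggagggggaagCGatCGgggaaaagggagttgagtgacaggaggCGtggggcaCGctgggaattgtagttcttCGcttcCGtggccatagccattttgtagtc
They held 20 CG dinucleotides for Rnf2, 30 for Ring1 and 23 for Jarid2, against a median of 6 over 32851 RefSeq windows of the same length. Their GC content was 70.4%, 73.6% and 67.2% in that order, against a median of 52.4%. So the nearly silent Ring1 and the well-expressed Rnf2 both have CG-rich windows. Both strands were searched for 7 motifs, each counted on its own whether or not it overlapped another: TTTNNCGC (E2F), CACGTG (E-box), the NRF1 motif, AAGATGGC (YY1), GGGCGG (SP1), CCAAT and TATAAA. All 3 windows held GGGCGG, as did 32.7% of all windows, and the first Jarid2 window also held CCAAT, as did 33.8%. The other Jarid2 window, chr13:44731021-44731270, held 22 CG dinucleotides, GGGCGG and TATAAA, the last found in 12.4% of all windows, and no CCAAT. These matches describe letters in a window and say nothing about binding.

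All 9 genes passed the filter on low counts. Levels are CPM, read counts scaled to a common library size after TMM normalisation, which measure a gene's share of the reads. With 32 pools of whole cells, fewer cells of a type and less RNA per cell cannot be told apart. Divided by exon length (CPM per kb) and averaged over all libraries of a stage, the order of the 9 genes was the same in GV and MII. Within single groups it varied. Pcgf6 stood above Ezh2 in B6 MII (170.5 and 159.5 CPM per kb), and Jarid2 above Rnf2 in D2 GV and F1 GV. Pcgf1 stood first at 375 ± 113 CPM per kb in GV oocytes and 529 ± 141 in MII oocytes (SD, n = 16 each). Ezh2 (139 ± 20.6 in GV), Pcgf6 (130 ± 31.2) and Suz12 (114 ± 21.4) followed and overlapped one another in CPM per kb. Eed came next with 71.6 ± 14.6 CPM per kb in GV. Rnf2 with 42.5 ± 5.89 CPM per kb and Jarid2 with 41.1 ± 9.04 were not separated by their spread in GV. Ezh1 had 9.96 ± 2.20 CPM per kb in GV, and Ring1 had 0.762 ± 0.561. The catalytic subunit of PRC2 was thus represented mainly by Ezh2, and that of PRC1 almost wholly by Rnf2, at the level of RNA. SPIA amplification can favour some transcripts over others, so this order is one of amplified RNA.

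**Figure D1:**
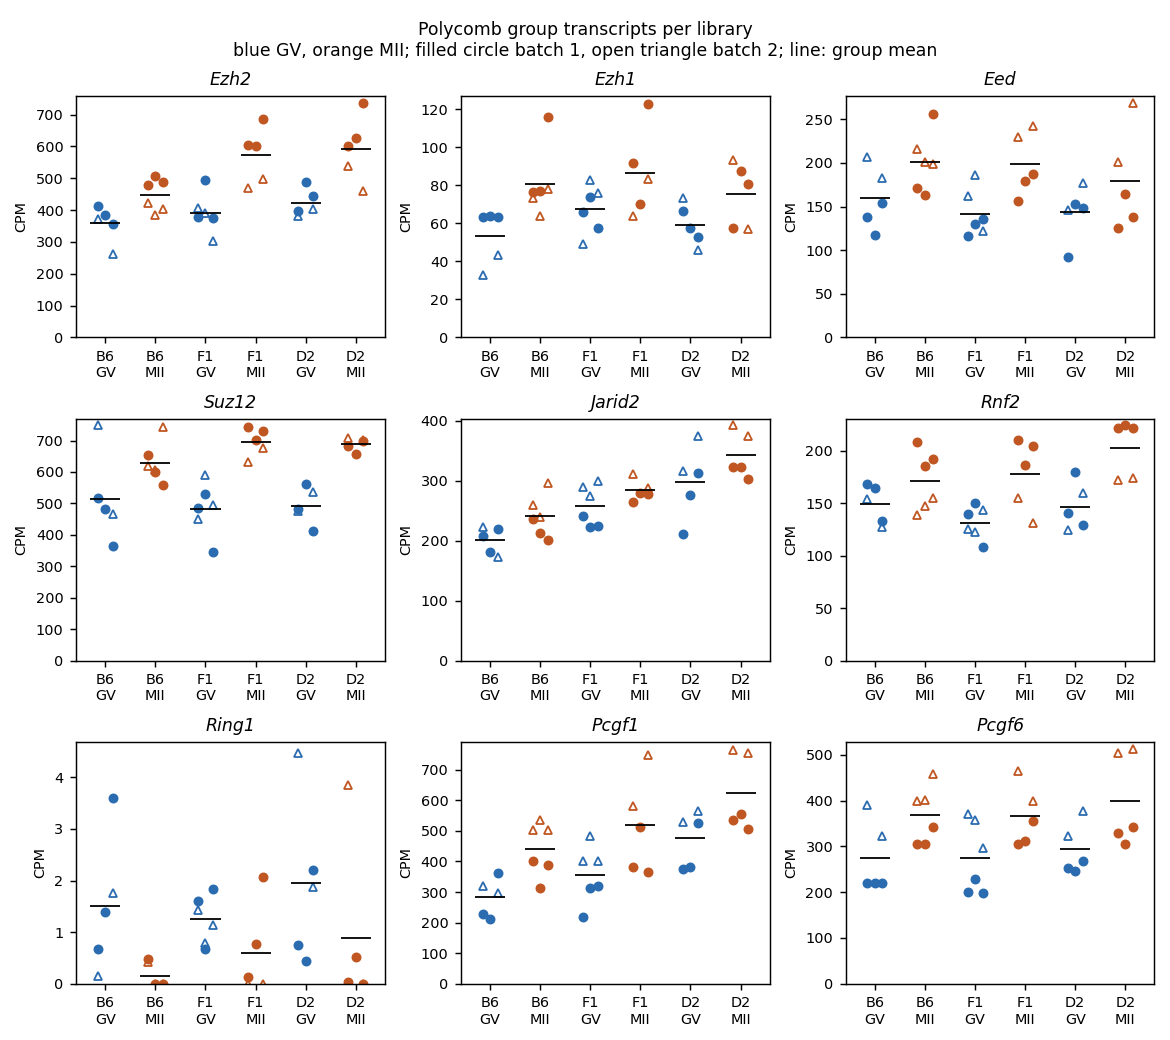
CPM (vertical axis, from 0) of the 9 genes in each of the 32 libraries by group (horizontal axis), with filled circles for batch 1, open triangles for batch 2 and a line at each group mean. MII means lie above GV means in each strain for every gene but Ring1, and Jarid2 and Pcgf1 step up from B6 through F1 to D2.

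GV pools carried more RNA of follicle cells than MII pools. The 25 granulosa and cumulus markers summed to 373 to 4315 CPM in GV libraries and 334 to 647 CPM in MII libraries. Of the 24 tested, 3 were higher and 18 lower in MII. The MII sum, with a median of 463 CPM, came largely from Bmpr1b, at a mean of 228 CPM in GV and 322 in MII. Nr5a2 (110 and 82.9 CPM) and Cyp19a1 (30.8 and 31.1) also stayed, while Lhcgr (65.8 and 0.283) and Gja1 (79.2 and 1.04) nearly vanished. Between 0 and 9 of the 25 were without a read in a GV library and between 4 and 14 in an MII library; Foxl2 and Slc38a3 had no read in any MII library. The 16 stroma and blood markers summed to 23.6 to 573 CPM in GV and 38.5 to 80.1 CPM in MII. Here 1 of 14 tested was higher and 10 were lower in MII. Most of that MII sum, with a median of 57.3 CPM, was Pecam1, at a mean of 36.2 CPM in GV and 49.3 in MII. All 12 oocyte markers were present in every library, summing to 8447 to 12670 CPM in GV and 7561 to 10790 in MII, with 4 higher and 5 lower in MII. Only 3 GV libraries, 1 of each strain and all of batch 2, had a granulosa level (the mean log2 CPM of the markers) within the MII range. Library totals ran from 18.7 M to 39.7 M counts, and no 2 libraries of a group were copies of each other.

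The first comparison asked how the Polycomb transcripts change as the oocyte matures. In MII relative to GV, averaged over the strains, 8 of the 9 genes rose and Ring1 fell. These are changes in the share of the reads, and amounts of transcript per oocyte were not measured. Of all 19003 genes tested, 51.9% passed the same test, 22.9% upwards and 29% downwards. Well-expressed genes leaned further upwards: of 3684 genes with a mean of at least 50 CPM, 69.9% rose, with a median log2 change of 0.32, against −0.06 for all genes. All 8 rising members belong to that class. The log2 change of Jarid2, 0.20, lay below the class median, and those of the others, 0.35 to 0.51, lay above it. Whether the members' rise differs from that of other well-expressed transcripts was not tested. The plot of stage changes by strain draws both medians beside the members.

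Among the PRC2 genes, Ezh2 had 263 CPM in the lowest, 387 in the median and 494 in the highest GV library, and 385, 501 and 736 CPM in MII. The lower end of MII lay among the GV values, but 9 of 16 MII libraries exceeded every GV library. Its log2 change was 0.45 ± 0.06 (SE; quasi-likelihood test of edgeR, Benjamini-Hochberg adjusted p = 5.36e-08). Ezh1, the alternative catalytic subunit, had 32.6, 63.3 and 83.1 CPM in GV and 57.1, 77.8 and 123 CPM in MII. The groups overlapped, with 6 MII libraries above all GV libraries, and the log2 change was 0.43 ± 0.10 (edgeR, adjusted p = 0.000729). Suz12 had 344, 483 and 749 CPM in GV and 557, 679 and 744 CPM in MII. A single B6 GV library topped every MII library, although the log2 change was 0.44 ± 0.07 (edgeR, adjusted p = 3.61e-06). Eed had 92.2, 148 and 207 CPM in GV and 125, 193 and 269 CPM in MII, a log2 change of 0.38 ± 0.08 (edgeR, adjusted p = 0.000211). Jarid2 moved least, from 173, 233 and 375 CPM in GV to 201, 284 and 393 CPM in MII, a log2 change of 0.20 ± 0.06 (edgeR, adjusted p = 0.0033). Only 1 of its MII libraries exceeded every GV library.

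Among the PRC1 genes, Rnf2, the ubiquitin ligase, had 108, 140 and 180 CPM in the lowest, median and highest GV library and 131, 186 and 225 CPM in MII. In 9 of 16 MII libraries its level lay above all GV libraries, and the log2 change was 0.35 ± 0.06 (edgeR, adjusted p = 2.38e-05). Pcgf1 had 211, 368 and 566 CPM in GV and 313, 510 and 764 CPM in MII. The groups overlapped widely, with 4 MII libraries beyond GV, and the log2 change was 0.51 ± 0.08 (edgeR, adjusted p = 7.41e-07). Pcgf6 had 199, 261 and 391 CPM in GV and 305, 349 and 513 CPM in MII, with 7 MII libraries beyond GV and a log2 change of 0.44 ± 0.05 (edgeR, adjusted p = 1.05e-08).

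**Figure D2:**
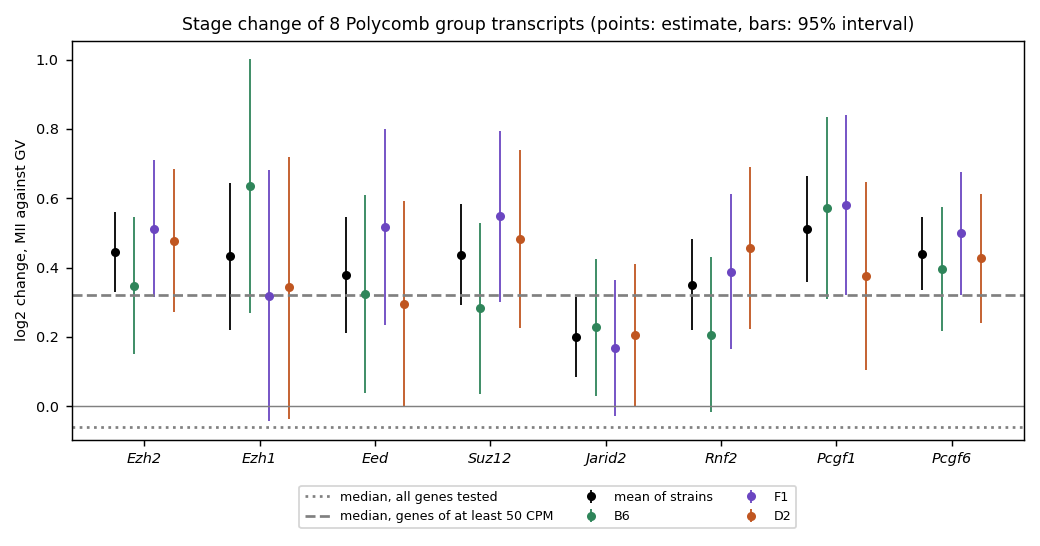
Log2 change from GV to MII (vertical axis) of the 8 genes other than Ring1, as the mean of strains and in B6, F1 and D2, with points for the estimates and bars for 95% intervals. The estimates for the mean of strains run from 0.20 (Jarid2) to 0.51 (Pcgf1). All but that of Jarid2 lie above the dashed line at 0.32, which marks the median of genes of at least 50 CPM.

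Ring1 was hardly detected at either stage. It gave 703 reads over the 16 GV libraries, a pooled 1.52 CPM, and 215 reads over the 16 MII libraries, 0.478 CPM. All GV libraries had at least 1 read and 8 of 16 MII libraries had none, where a count of 0 allows at most 0.13 CPM in the smallest MII library (3 counts, counting error only). The lowest, median and highest values were 0.142, 1.41 and 4.46 CPM in GV and 0, 0.0158 and 3.85 CPM in MII. A single D2 library of batch 2 held the highest MII value. The log2 change was −1.84 ± 0.73 (edgeR, adjusted p = 0.0327). The call ended without any 1 of 3 libraries: D2 GV replicate 1 of batch 2 (−1.64, adjusted p = 0.0646), B6 GV replicate 5 of batch 1 (−1.63, adjusted p = 0.0647) or F1 MII replicate 3 of batch 1 (−1.75, adjusted p = 0.0504). It also ended with no filter on low counts (adjusted p = 0.0773). In the other direction, the change was −2.92 without D2 MII replicate 1 of batch 2, the library with the highest MII value, −2.80 (adjusted p = 0.004) with the replicate number as a block and −3.85 (adjusted p = 0.0452) in batch 2 alone.

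**Figure D3:**
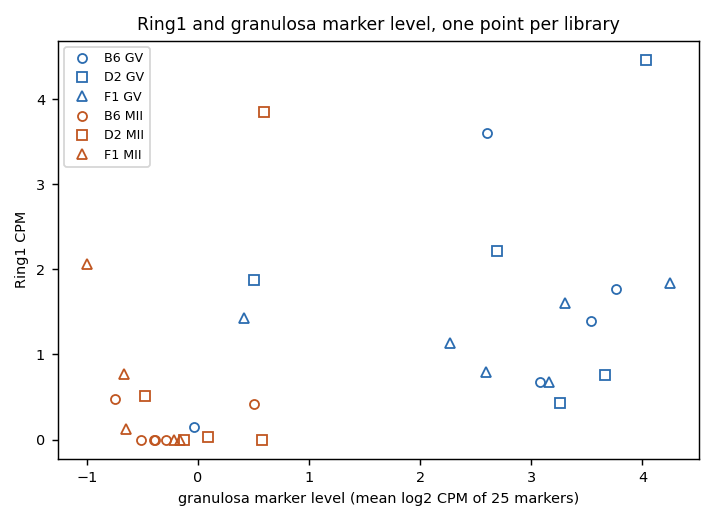
Ring1 CPM (vertical axis) against the granulosa marker level (horizontal axis, mean log2 CPM of 25 markers) in each library, blue for GV and orange for MII, with a shape for each strain. The 13 GV libraries right of all MII libraries hold between 0.431 and 4.46 CPM of Ring1, and the 3 GV libraries within the MII range hold 0.142, 1.43 and 1.87 CPM.

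Fewer members passed once the follicle-cell signal entered the fit, as did fewer of all genes. All but 3 GV libraries lay above every MII library in granulosa level, so this covariate varies largely with stage. A call lost to follicle-cell RNA and a call lost to a less precise fit therefore cannot be told apart. With the granulosa marker level of each library as a covariate, 2 of the 9 genes still passed, where 13.7% of all genes did against 51.9% before: Ezh1, with a log2 change of 0.76 (edgeR, adjusted p = 0.00896), and Pcgf1, with 0.47 (adjusted p = 0.0262). Without the 13 GV libraries above the MII granulosa range, where 10.8% of all genes passed, the same 2 members did, Ezh1 at 0.76 (edgeR, adjusted p = 0.0106) and Pcgf1 at 0.56 (adjusted p = 0.00114). Under that restriction the log2 changes of Ezh2, Eed, Suz12, Jarid2, Rnf2 and Pcgf6 were 0.18, 0.24, 0.21, 0.06, 0.03 and 0.20, and Ring1 stood at −0.67. The 3 GV libraries that remain there are all of batch 2, so granulosa level and batch cannot be told apart in that setting. In batch 2 with all its GV libraries the log2 changes of the same 6 genes were 0.29, 0.33, 0.24, 0.13, 0.09 and 0.30. Whether follicle-cell RNA has a part in the members' change was not tested further. Within batch 2 alone 5 of the 9 passed, 4 of them higher, against 8 within batch 1, where the shares of all genes that passed were 23.6% and 46.9%.

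Within single strains the members' changes were all upward where they passed. In B6, 4 genes rose: Ezh1 by 0.64 ± 0.18 on the log2 scale, Ezh2 by 0.35 ± 0.10, Pcgf1 by 0.57 ± 0.13 and Pcgf6 by 0.40 ± 0.09 (edgeR adjusted p from 0.00103 to 0.00829). The B6 count ran from 4 to 7 with 1 library left out, with 7 reached without D2 GV replicate 4 of batch 1, and was 6 with the replicate number as a block. The background in B6 was 26.7% of genes called, 10.3% upwards, and of the genes of at least 50 CPM 36.8% rose. In D2, 5 genes rose: Ezh2 by 0.48 ± 0.10, Suz12 by 0.48 ± 0.13, Rnf2 by 0.46 ± 0.11, Pcgf1 by 0.38 ± 0.13 and Pcgf6 by 0.43 ± 0.09 (edgeR adjusted p from 0.000643 to 0.0318). Here 28.7% of all genes were called, 13.1% upwards, and 50.2% of those of at least 50 CPM rose. In F1, 6 genes rose: Ezh2 by 0.51 ± 0.10, Eed by 0.52 ± 0.14, Suz12 by 0.55 ± 0.12, Rnf2 by 0.39 ± 0.11, Pcgf1 by 0.58 ± 0.13 and Pcgf6 by 0.50 ± 0.09 (edgeR adjusted p from 5e-05 to 0.00643). The F1 background was 32.9%, 14.9% upwards, with 56.2% of the genes of at least 50 CPM rising. In both D2 and F1 Suz12 was the only member with all 5 MII libraries above every GV library of the strain. In B6 0 of its 6 MII libraries lay above every GV library, against 5 of 6 for Ezh1 and for Pcgf1. The share of all genes that separate in this way was not counted. With the granulosa level as a covariate the counts were 1 in B6 (Ezh1), 0 in D2 and 0 in F1. The call for Pcgf1 in D2 was fragile, since it ended when any 1 of 16 libraries was left out (log2 change 0.29 to 0.38, adjusted p from 0.0512 to 0.158).

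A gene that passed in one strain and not in another did not thereby differ between them. The difference of the stage change, D2 minus B6, was tested directly, and 0 of the 9 genes passed, also at an unadjusted p under 0.05 and with DESeq2. The background was 0.105% of genes. The estimates ran from −0.29 for Ezh1 (95% interval −0.82 to 0.23) to 0.25 for Rnf2 (−0.07 to 0.57) among the 8 expressed genes, so differences of this size remain possible. Ring1 had an interval from −1.42 to 5.71, too wide to show a difference.

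The second comparison asked which of these transcripts differ between the parental strains. The build named for all libraries is GRCm38, a B6 sequence. Any effect of D2 variants on the mapping of reads was not tested, here or for the gene lists below. The share of all genes whose libraries separate by strain was not counted either, for the members or for those lists. Jarid2, Pcgf1 and, in MII, Ezh2 were higher in D2 than in B6, and no member was lower. In GV oocytes 2 of 9 genes passed, where 20.5% of all genes did and 9.16% were higher in D2, or 15.3% among genes of at least 50 CPM. In MII oocytes 3 of 9 passed, where 26.4% of all genes did and 13.4% were higher in D2, or 22% among genes of at least 50 CPM.

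Jarid2 in GV oocytes was at 173, 180, 208, 219 and 224 CPM in the 5 B6 libraries and at 212, 277, 312, 316 and 375 CPM in the 5 D2 libraries. All but the lowest D2 library lay above B6. The log2 difference was 0.56 ± 0.10 (edgeR, adjusted p = 7.12e-05). In MII oocytes B6 ran from 201 through a median of 238 to 297 CPM over 6 libraries, and the 5 D2 libraries had 303, 323, 323, 374 and 393 CPM. Here the strains did not overlap, and the log2 difference was 0.53 ± 0.10 (edgeR, adjusted p = 4.67e-05). It passed within each batch taken alone at both stages, with log2 differences from 0.46 to 0.83.

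Pcgf1 in GV oocytes was at 211, 227, 296, 318 and 361 CPM in B6 and at 375, 383, 526.3, 530 and 566 CPM in D2. All 5 D2 libraries lay above all 5 B6 libraries. The log2 difference was 0.74 ± 0.13 (edgeR, adjusted p = 6.75e-05), and it passed in batch 1 alone (0.74) and in batch 2 alone (0.86). In MII oocytes B6 ran from 313 through 452 to 536 CPM, and D2 had 508, 537, 554, 755 and 764 CPM. In 4 of 5 D2 libraries the level exceeded B6, with a log2 difference of 0.54 ± 0.13 (edgeR, adjusted p = 0.00125). In batch 1 alone that difference was 0.48 and did not pass (adjusted p = 0.0973), and in batch 2 alone it was 0.51 (adjusted p = 0.02).

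Ezh2 in MII oocytes ran from 385 through 450 to 506 CPM in B6 and was at 459, 538, 601, 628 and 736 CPM in D2. In 4 of 5 D2 libraries it exceeded B6, with a log2 difference of 0.37 ± 0.10 (edgeR, adjusted p = 0.00331). It did not pass within batch 1 alone (0.37, adjusted p = 0.0578) or batch 2 alone (0.26, adjusted p = 0.36). In GV oocytes its difference was 0.24 ± 0.10 (edgeR, adjusted p = 0.0871). With the granulosa level as a covariate, Jarid2 and Pcgf1 kept log2 differences of 0.57 and 0.74 in GV and 0.56 and 0.55 in MII, and Ezh2 had 0.27 and 0.40, all past the threshold.

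The other members gave no call between the strains. In GV oocytes the estimates, D2 minus B6, were 0.18 for Ezh1 (95% interval −0.20 to 0.56), −0.14 for Eed (−0.44 to 0.16), −0.06 for Suz12 (−0.31 to 0.20), −0.03 for Rnf2 (−0.26 to 0.21) and 0.12 for Pcgf6 (−0.07 to 0.31). In MII oocytes they were −0.11 for Ezh1 (−0.48 to 0.25), −0.17 for Eed (−0.45 to 0.12), 0.14 for Suz12 (−0.10 to 0.39), 0.22 for Rnf2 (0.002 to 0.447; unadjusted p = 0.0477, adjusted p = 0.133) and 0.15 for Pcgf6 (−0.03 to 0.33). A doubling in either direction lay outside every one of these intervals. Ring1 in MII rested on 1 D2 library, with a log2 difference of 2.45 with it and −0.41 without it.

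**Figure D4:**
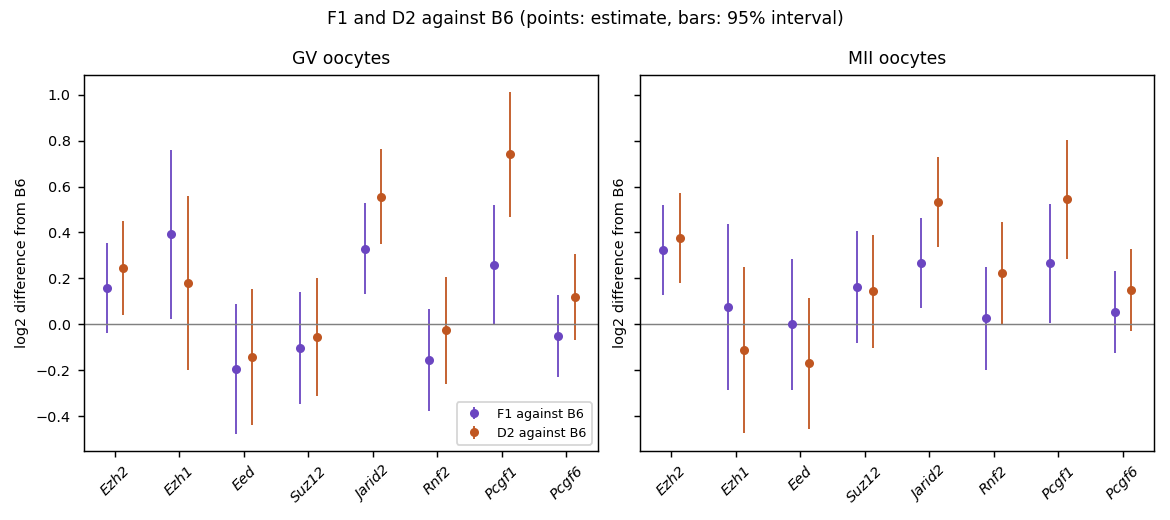
Log2 difference from B6 (vertical axis) of F1 and of D2 in GV oocytes (left) and MII oocytes (right) for the 8 genes other than Ring1, with points for estimates and bars for 95% intervals. For Jarid2 and Pcgf1 the F1 estimates (0.33 and 0.26 in GV, 0.27 in MII for each) lie between B6 at 0 and D2 (0.56 and 0.74 in GV, 0.53 and 0.54 in MII).

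The third comparison placed the F1 hybrid between its parents. Against the mid-parent, the mean of the parents' log2 levels, 0 of 9 genes passed in GV and 0 of 9 in MII, also at an unadjusted p under 0.05 and with DESeq2. The background was 0.879% of genes in GV and 1.16% in MII. Jarid2 was 0.05 above the mid-parent in GV (95% interval −0.12 to 0.22) and 0.00 from it in MII (−0.17 to 0.18). Pcgf1 was −0.11 from it in GV (−0.34 to 0.11) and −0.01 in MII (−0.24 to 0.23), and Ezh2 was 0.04 from it in GV (−0.13 to 0.20) and 0.14 in MII (−0.04 to 0.31). Ezh1 had the largest GV estimate among the 8 expressed genes, 0.30 (−0.01 to 0.61; unadjusted p = 0.0538, adjusted p = 0.736).

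Jarid2 in F1 GV oocytes ran from 222 through 258 to 300 CPM over 6 libraries, of which 5 lay above all B6 libraries. In F1 MII it was at 265, 278, 279, 288 and 312 CPM, within a narrower band than in either parent, and 4 of these lay below every D2 library. Pcgf1 ran from 219 through 361 to 483 CPM in F1 GV and was at 365, 383, 512, 583 and 749 CPM in F1 MII, overlapping both parents. Ezh2 was at 469, 497, 600, 604 and 688 CPM in F1 MII, in the range of D2. Set against single parents, which share their libraries with the tests above, Jarid2 passed against B6 in GV (0.33 ± 0.10, edgeR adjusted p = 0.0388), where 5.5% of genes passed. Pcgf1 passed against D2 in GV (−0.48 ± 0.13, edgeR adjusted p = 0.0154), where 6.05% of genes passed. Ezh2 passed against B6 in MII (0.32 ± 0.10, edgeR adjusted p = 0.0334), where 7.36% of genes passed. Against D2 in MII 0 members passed, where 8.11% of genes did. The estimates there were −0.26 ± 0.10 for Jarid2 and −0.28 ± 0.13 for Pcgf1, both under an unadjusted p of 0.05.

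Ratios of paralogues within a library do not depend on its scaling. The log2 ratio of Ezh2 to Ezh1 counts was 2.78 ± 0.41 in B6 GV, 2.54 ± 0.38 in F1 GV and 2.85 ± 0.35 in D2 GV (SD). In MII it was 2.48 ± 0.24, 2.75 ± 0.24 and 2.99 ± 0.33 in the same order, so the groups overlapped throughout. The log2 ratio of Pcgf6 to Pcgf1 counts differed in mean across the GV groups, −0.06 ± 0.39 in B6, −0.38 ± 0.22 in F1 and −0.70 ± 0.16 in D2. In MII it was −0.25 ± 0.16 in B6, with a range of −0.42 to −0.04, and −0.66 ± 0.13 in D2, with a range of −0.86 to −0.56. The D2 and B6 ranges did not overlap in MII, and F1, at −0.46 ± 0.34, spanned both. These ratios are given without a test. For Rnf2 to Ring1 the log2 ratio was 7.27 ± 1.87 in B6 GV, 6.67 ± 1.51 in D2 GV and 6.80 ± 0.68 in F1 GV, and it could not be formed for MII, where Ring1 was at 0 in 8 libraries.

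Batch 2 was sequenced on a different instrument from batch 1, with 3 libraries of batch 1 in each group and 2 or 3 of the other. Between the batches 6 of 9 members passed, where 42.4% of all genes did. Pcgf6 was 0.55, Pcgf1 0.47, Eed 0.37 and Jarid2 0.24 higher in batch 2 on the log2 scale, and Ezh2 was −0.28 and Rnf2 −0.25 (edgeR adjusted p from 4.36e-11 to 0.00217). For Pcgf6, Eed and Rnf2 the batch difference exceeded any strain difference found. Batch was a term in all the tests above.

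Across the 32 libraries, after the batch mean was taken out, Suz12 and Rnf2 had the highest correlation of log2 CPM among the members (r = 0.85), followed by Ezh2 with Pcgf6 (0.83), Ezh2 with Suz12 (0.79) and Jarid2 with Pcgf1 (0.77). Ring1 had r of 0 or below with every other member, from 0 with Jarid2 to −0.60 with Suz12. Among up to 8804 other genes of at least 5 CPM, the most similar pattern to Ezh2 was that of Srpk2 (r = 0.946), to Suz12 that of Tnpo1 (0.946), to Pcgf6 Ube4b (0.941) and to Jarid2 Kif3b (0.922). For Pcgf1 it was B4galt5 (0.911), for Rnf2 Arap2 (0.883), for Eed Hirip3 (0.827), for Ring1 Neil2 (0.82) and for Ezh1 Dnal4 (0.814). These values are descriptions over libraries that share stage, strain and follicle-cell RNA.

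The other subunits of the complexes were described by lists, whose counts stand beside 22.9% of all genes rising, and 69.9% of the genes of at least 50 CPM, where the median log2 change was 0.32. The lists also hold genes below that level, so their medians are not directly comparable with it. Of the PRC2 accessory genes 7 of 10 rose from GV to MII and 1 fell, with a median log2 change of 0.41. Ezhip, an inhibitor of PRC2 activity known from gonads, rose with a mean of 1347 CPM in GV and 1862 in MII (log2 change 0.48 ± 0.05, edgeR adjusted p = 4.87e-09). Aebp2, a partner of Jarid2 in the PRC2.2 form, rose by 0.60 ± 0.07 (edgeR, adjusted p = 4.65e-09), and 12 of 16 MII libraries lay above all GV libraries. Rbbp7, a histone-binding core subunit shared with other chromatin complexes, rose by 0.52 ± 0.08, and Lcor by 0.43 ± 0.06. Canonical PRC1 genes split, with 5 of 12 higher, 4 lower and a median of 0.11. Phc2, a polyhomeotic protein that links PRC1 units, rose by 0.90 ± 0.06 and Scml2 by 0.66 ± 0.05 (edgeR adjusted p = 4.67e-14 and 2.64e-13), and for both all 16 MII libraries lay above all 16 GV libraries. Both were named for their low adjusted p. The share of all genes that separate between stages was not counted, here or for the list genes that follow. Cbx2, a reader of H3K27me3, rose by 0.46 ± 0.08 and Scmh1 by 0.39 ± 0.08.

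Of the variant PRC1 genes 13 of 22 rose and 2 fell, with a median of 0.24. This list holds genes under 50 CPM, such as E2f6, Pcgf5 and Bcor (means of 2.61, 5.32 and 11.5 CPM). Csnk2a1, a casein kinase 2 subunit found in variant PRC1, rose by 0.73 ± 0.07 with all 16 MII libraries above GV (edgeR, adjusted p = 3.75e-11). Max, a DNA-binding partner in Pcgf6 complexes, rose by 0.57 ± 0.07, Auts2 by 0.49 ± 0.07 and Dcaf7 by 0.47 ± 0.06. Of 12 erasers and deubiquitinase genes 10 rose and 0 fell, with a median of 0.51. They included Kdm6a, which removes H3K27 methylation (0.51 ± 0.06), Usp16, which removes ubiquitin from H2A (0.63 ± 0.08), and Foxk1 and Foxk2, DNA-binding partners of the BAP1 deubiquitinase and no erasers themselves (0.70 ± 0.06 and 0.56 ± 0.05). Of the 4 genes of the DNA-binding Pho family and Sfmbt, Sfmbt1 rose by 0.66 ± 0.05 from a mean of 846 CPM, with all 16 MII libraries above GV (edgeR, adjusted p = 1.23e-12). Yy1, at a mean of 7.04 CPM, was among the 2 that fell (−0.54 ± 0.18, edgeR adjusted p = 0.0126).

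**Figure D5:**
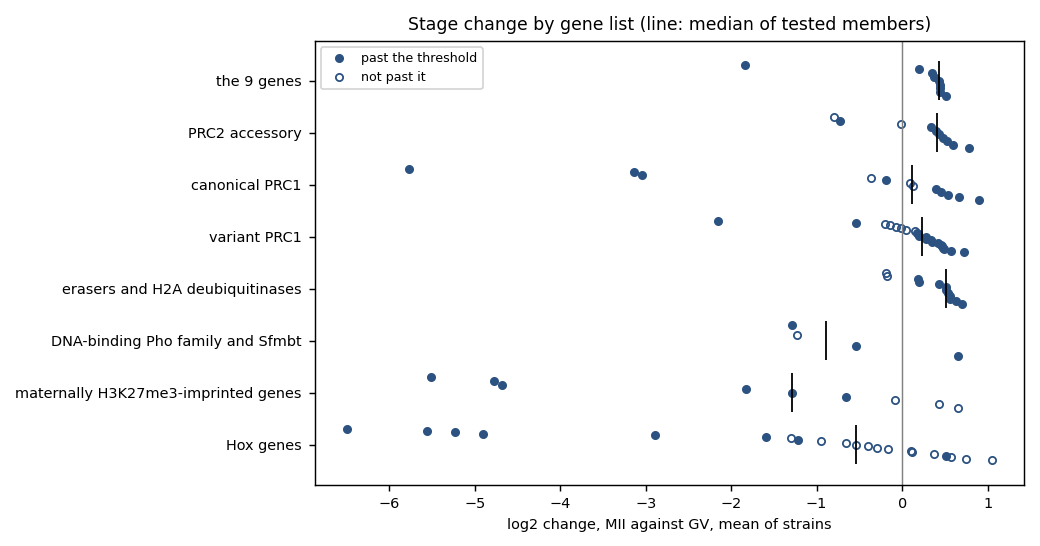
Log2 change from GV to MII, mean of strains (horizontal axis), of every tested gene in the 9 members and 7 lists (vertical axis), filled where past the threshold and with a line at each list's median. Members, PRC2 accessory genes and erasers centre on 0.43, 0.41 and 0.51, while the imprinted and Hox genes reach far to the left. Most of the imprinted and Hox genes lie under a mean of 5 CPM.

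The list counts were smaller too with the granulosa level as a covariate, where 13.7% of all genes passed: 2 of 10 PRC2 accessory genes, 2 of 12 canonical PRC1, 6 of 22 variant PRC1, 4 of 12 eraser and 1 of 4 Pho family genes passed. Phc2, Scml2, Csnk2a1, Sfmbt1, Aebp2, Ezhip, Max, Foxk1, Foxk2 and Kdm6a kept their calls there. Rbbp7, Lcor, Cbx2, Scmh1, Dcaf7, Auts2, Usp16 and Yy1 did not pass there (adjusted p from 0.059 to 0.633), at log2 changes of 0.40, 0.30, 0.38, 0.28, 0.31, 0.35, 0.34 and −0.33 in that order, all in the direction they had before and with standard errors of 0.11 to 0.36. The list medians were 0.28 for PRC2 accessory, 0.16 for canonical PRC1, 0.24 for variant PRC1 and 0.31 for eraser genes, and −0.72 for the Pho family. Of the 4 Pho family and Sfmbt genes tested, 2 lay under a mean of 5 CPM.

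Genes that Polycomb is known to silence were looked at as well. Of 9 tested genes with maternal H3K27me3 imprinting 0 were higher and 6 lower in MII, with a median of −1.29, where 29% of all genes were lower. Of these 9 genes 6 lay under a mean of 5 CPM. A gene at this level can pass the filter through its GV libraries alone, and a lower MII level is then partly set in advance. Smoc1, for one, had a mean of 1.97 CPM in GV and 0.108 in MII. Under the filter of at least 1 CPM in 16 libraries, 4 imprinted genes were tested, with 0 higher and 3 lower. Xist, the RNA that silences an X chromosome, went from a mean of 112 CPM in GV to 3.79 in MII (−5.52 ± 0.81, edgeR adjusted p = 2.8e-06), and Etv6 from 9.43 to 6.16 CPM (−0.66 ± 0.21). Of 21 tested Hox genes 1 was higher and 7 lower, with a median of −0.54. The 1 that rose was Hoxa7, from a mean of 12.3 CPM in GV (0.52 ± 0.14, edgeR adjusted p = 0.00297). Of these 21 genes 19 lay under a mean of 5 CPM. Under the filter of at least 1 CPM in 16 libraries, 3 Hox genes were tested, with 1 higher and 0 lower. With the granulosa level as a covariate 0 of the 9 imprinted genes passed (median 0.58), Xist stood at 0.81 and Etv6 at 0.80, and 1 of 21 Hox genes passed, which was not Hoxa7 (0.30). Without the 13 GV libraries rich in granulosa markers Xist stood at 2.06 (edgeR, adjusted p = 0.235) and Etv6 at 0.50 (adjusted p = 0.418).

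Between the strains, the PRC2 accessory genes with the lowest adjusted p were Ezhip and Phf19. Ezhip was higher in D2, with means of 1605 against 1018 CPM in GV (0.66 ± 0.10, edgeR adjusted p = 2.45e-06) and 2131 against 1546 CPM in MII (0.51 ± 0.09, adjusted p = 5.49e-05). Phf19, a Polycomb-like subunit that binds methylated H3K36, was lower in D2, with 1.81 ± 0.488 against 10.1 ± 6.41 CPM in GV (SD) and 3.06 ± 1.69 against 20.5 ± 8.66 CPM in MII. In both stages all 5 D2 libraries lay below all B6 libraries, with log2 differences of −2.33 ± 0.37 and −2.59 ± 0.36 (edgeR adjusted p = 8.9e-06 and 7.33e-07). The list counts, D2 against B6, were 1 higher and 3 lower of 10 in GV and 3 and 3 in MII. Beside these and the list counts that follow, 9.16% of all genes were higher and 11.3% lower in D2 in GV. In MII the shares of all genes were 13.4% and 13%.

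In canonical PRC1, 3 of 12 were higher and 2 lower in D2 in GV, and 3 and 1 in MII. Bmi1, the Pcgf4 subunit, was lower in D2 in GV (213 against 447 CPM, −0.94 ± 0.23) and in MII (297 against 576 CPM, −0.85 ± 0.22, edgeR adjusted p = 0.00433). In batch 1 alone those differences were −0.16 and −0.57 and did not pass. Cbx2 was higher in D2 in GV (0.58 ± 0.15) and Phc3 in MII (0.49 ± 0.11). In variant PRC1, 5 of 22 were higher and 2 lower in GV, and 4 and 4 in MII. Mga, the scaffold of Pcgf6-containing PRC1.6, was higher in D2 MII oocytes (240 ± 37.8 against 127 ± 17.2 CPM, SD; 0.95 ± 0.11, edgeR adjusted p = 7.98e-09), with no overlap. Its partner Max was higher in D2 GV oocytes (0.53 ± 0.12), and Tfdp1, an E2F partner, at both stages (0.63 ± 0.12 and 0.87 ± 0.11).

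Of the eraser list 2 of 12 were higher and 1 lower in D2 in GV, and 1 and 3 in MII. Asxl1, the cofactor of the BAP1 deubiquitinase, was higher in D2 at 572 ± 33.0 against 323 ± 12.0 CPM in GV and 654 ± 69.3 against 353 ± 29.0 CPM in MII (SD). The strains did not overlap at either stage, and the log2 differences were 0.82 ± 0.07 and 0.90 ± 0.07 (edgeR adjusted p = 7.95e-11 and 1.8e-12). Usp16 was lower in D2 at both stages (−0.58 ± 0.13 and −0.50 ± 0.13). Of the Pho family 0 of 4 passed in GV and 2 were higher in MII, Yy1 among them (0.94 ± 0.31). Of the imprinted genes 0 of 9 passed in GV and 4 were higher in MII, Gab1 having the lowest adjusted p of those above 5 CPM (0.95 ± 0.28). Of these 9 genes 6 lay under a mean of 5 CPM, and Sfmbt2 is also on the Pho family list. Of the 21 Hox genes, 19 of them under a mean of 5 CPM, 1 was higher and 2 lower in GV and 1 higher in MII. Hoxd9 was higher in D2 at both stages, 11.9 ± 4.09 against 1.34 ± 0.691 CPM in GV and 10.8 ± 3.81 against 2.39 ± 1.71 CPM in MII (SD), with no overlap. Against the mid-parent, and in the stage change between D2 and B6, 0 genes of any of these 7 lists passed.

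Several of these list genes did not pass within 1 batch alone. In batch 1 alone Cbx2 in GV had a strain difference of 0.46 and Yy1 in MII of 0.80. In batch 2 alone the strain differences were 0.50 for Tfdp1 and −0.39 for Usp16 in GV, and 0.38 for Phc3, −0.47 for Usp16, 0.99 for Yy1, 0.18 for Gab1 and 1.57 for Hoxd9 in MII, none past the threshold. Without D2 GV replicate 1 of batch 2, Bmi1 in GV stood at −0.66 (edgeR, adjusted p = 0.0519). Yy1 in MII stood at 0.78 without B6 MII replicate 3 of batch 1 (adjusted p = 0.0569), and Gab1 at 0.67 without D2 MII replicate 4 of batch 1 (adjusted p = 0.0751) and at 0.74 with the replicate block (adjusted p = 0.0652). Between stages, Xist (−4.29), Etv6 (−0.68), Yy1 (−0.71) and Scmh1 (0.26) did not pass in batch 2 alone, nor did Yy1 (−0.49) and Hoxa7 (0.33) in batch 1 alone.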

How the data were processed

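RNA was measured in pools of oocytes after column extraction, DNase treatment, single primer isothermal amplification (SPIA) and library amplification over 12 PCR cycles, read as single 50-nt reads, per the labels' protocols. HISAT2, SAMtools, featureCounts, Subread 1.5.1, DESeq2 1.16.1 and the build GRCm38.p4 are named, per the submitters' processing notes. The treatment of strand and of multi-mapping reads is not given in the sources used here. Values deposited by the authors are raw read counts for each gene. Rows that named no gene (3 of 37444) were left out and held at most 0.019% of a library; 36371 genes had a RefSeq symbol.

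Counts were filtered with filterByExpr, scaled by TMM and fitted in 1 model of the 6 groups and batch over the 32 libraries, with edgeR 4.0.16 (robust quasi-likelihood, two-sided, Benjamini-Hochberg within each contrast over 19003 genes, threshold 0.05). SE is the log2 change divided by the square root of F, and 95% intervals use the moderated degrees of freedom of each gene. Each library is a separate female. Depth was 18.7 M to 39.7 M counts, and floors cover counting error only. Exon lengths and overlaps came from the GENCODE annotation of GRCm38, and names and promoters from RefSeq. A gene exceeding all libraries of the other group is a count, not a test. The share of all genes that do so was not counted in any comparison. Alternatives were median-of-ratios scaling, 2 other filters, DESeq2 1.42.0, each batch alone, a 3-level batch, a replicate block, the granulosa level as a covariate, each library left out, and, added after seeing the data, leaving out GV libraries above the MII granulosa range. The fit was tested on simulated data.

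The members and the lists were chosen with earlier results of these data known. All members were named; of each list, up to 4 genes of at least 5 CPM with the lowest adjusted p between stages, and up to 2 between strains at each stage. Lists were PRC2 accessory, canonical PRC1, variant PRC1, erasers and H2A deubiquitinases, Pho family and Sfmbt, H3K27me3-imprinted and Hox genes, and markers of granulosa, stroma and blood, and oocyte. Similar genes were ranked by Pearson r of log2 CPM (prior count 3) after subtraction of the batch mean.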

Additional observations from a re-analysis of the deposited data

Results flagged for a closer look

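Of 54 checks of a gene in a group for a single library far from the others, 2 stood out, where chance alone gives about 1 in 20. Ezh1 was at 116.2 CPM in B6 MII replicate 3 of batch 1, against 63.9 to 78.4 CPM in the other 5 libraries of the group. Ring1 was at 3.845 CPM in D2 MII replicate 1 of batch 2, against 0 to 0.515 CPM in the other 4.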

How the results depend on the processing

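No change of a member that passed between stages or between D2 and B6 turned its direction under any setting tried. The count of members that passed for MII against GV as a mean of strains, 9, was 5 in batch 2 alone, 2 with the granulosa level as a covariate and 2 without the 13 GV libraries above the MII granulosa range, an alternative chosen after seeing the data. In the same order of those 3 settings, B6 with 4 became 1, 1 and 2, D2 with 5 became 0, 0 and 0, and F1 with 6 became 1, 0 and 1, while batch 1 alone gave 2 in D2. For D2 against B6 in MII, 3 became 1 in batch 1 alone. With 1 library left out, the counts ran from 8 to 9 for the mean of strains, 4 to 7 in B6, 4 to 5 in D2, 6 to 6 in F1, 2 to 3 for D2 against B6 in GV, 3 to 3 in MII and 0 to 0 in the mid-parent and stage-difference tests. In all genes, DESeq2 called 101 for the stage difference and 387 for the MII mid-parent, against 20 and 220.

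Changes of sign among values that did not pass were as follows. Between stages in B6, Suz12 was −0.297, Ring1 0.167 and Rnf2 −0.131 without the GV libraries rich in granulosa markers, and Rnf2 was −0.072 with the covariate. In D2, Jarid2 was −0.039 without those libraries. In F1, Jarid2 was −0.003 in batch 2 alone and −0.042 with the covariate. For D2 against B6 in GV, batch 1 alone gave Ezh1 −0.039, Eed 0.006, Suz12 0.16, Ring1 −0.671 and Rnf2 0.013, and batch 2 alone gave Rnf2 0.035 and Pcgf6 −0.004. Ring1 was −0.027 with a 3-level batch and −0.065 with the replicate block. Rnf2 was 0.013 with median-of-ratios scaling and with DESeq2, 0.026 with no filter, 0.001 with a 3-level batch and 0.034 without the granulosa-rich libraries, where Pcgf6 was −0.067. For D2 against B6 in MII, batch 2 alone gave Ezh1 0.02 and Eed 0.136, and batch 1 alone gave Pcgf6 −0.007. Leaving out 1 library spanned −0.166 to 0.045 for Eed, −0.097 to 0.101 for Suz12, −0.106 to 0.976 for Ring1 and −0.105 to 0.133 for Rnf2 in GV, and −0.234 to 0.012 for Ezh1 and −0.41 to 3.289 for Ring1 in MII. Among the list genes named, Xist (0.81 and 2.06) and Etv6 (0.799 and 0.503) turned with the covariate and without the granulosa-rich libraries. The cause was not tested.

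Replicate numbers gave no sign of pairing the samples: of 11 same-numbered GV and MII pairs 0 had a correlation of deviations over 0.1 (−0.266 to 0.093). A pairing that left no such correlation would not be seen in this check. With the replicate block the count for the mean of strains was 9, and no member that passed lost its call.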
